A study of Mus musculus with 12 samples.

Results

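The genes described here encode the DNA replication machinery of the mouse. They are 47 genes, chosen by name and found by their Ensembl IDs among 56691 IDs in a table of read counts, of which 30285 had a count in any library. They fall into 7 licensing genes, 15 helicase genes, 12 polymerase genes, 8 clamp genes and 5 genes of the fork and its chromatin. RNA was sequenced from naive CD8+ T cells of the spleen in 4 groups of 3 libraries. CKO cells, in which the gene for the SUMO protease Senp1 was deleted as the labels give it, were taken after 48 h of stimulation or at 0 h, and WT cells with intact Senp1 were taken at the same times. Stimulation was with an antibody to CD3 at 5 µg/ml, which acts on the T-cell receptor complex, and an antibody to CD28 at 1 µg/ml, a costimulatory receptor. No Cre driver, strain or age is given for the animals, and the labels do not say that the 3 libraries of a group came from separate animals, so the p-values below measure the spread between these samples.

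A resting T cell carries its genome unreplicated, and entry into the cell cycle requires that replication origins be licensed first. The origin recognition complex, Cdc6 and Cdt1 load the ring of Mcm2 to Mcm7 onto DNA, and geminin keeps Cdt1 from loading it again. In S phase the kinase Cdc7 with its activating subunit Dbf4 turns the loaded ring, together with Cdc45 and the GINS complex, into the working helicase. Polymerase alpha-primase starts each strand, and polymerases delta and epsilon extend it, held on DNA by the Pcna clamp, which the Rfc complex loads. Many of these genes are known targets of the E2F transcription factors.

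Library totals ran from 15900529 to 22427151 counts, and all 47 genes passed the filter on low counts, among 15935 genes tested. Senp1 itself averaged 70.3 CPM (counts scaled by library total and TMM factor) in CKO cells and 161.7 CPM in WT cells at 48 h, and 57.0 CPM in CKO cells and 82.4 CPM in WT cells at 0 h. Its log2 difference was -1.20 at 48 h (edgeR adjusted p = 5.43e-10) and -0.53 at 0 h (edgeR adjusted p = 6.26e-05). The T-cell markers Cd8a, Cd8b1, Cd3e and Trac were present in every group. WT replicate 1 at 48 h lay farthest from its group, with a median absolute log2 deviation over genes of 0.134 against 0.0758 to 0.112 in the other libraries. Summed B-cell markers at 0 h stood at 193.9 to 249.1 CPM in CKO libraries and at 285.7 to 554.0 CPM in WT libraries, with WT replicate 1 the highest. In bulk RNA, fewer cells of a type and less RNA per cell cannot be told apart.

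The promoters below show what lies at the start sites of genes with large and small rises and of Dbf4, which showed no rise. They were chosen after the values were seen. Each is the RefSeq window of 300 bases in GRCm38.p6, from 250 bases before the start site to 50 after it, read 5′ to 3′ on the strand of the gene. Capitals mark an E2F word, meaning TTTGGCGC, TTTCGCGC, TTTCCCGC or TTTGCCGC on either strand. Cdc6, the licensing loader, is at chr11:98907901-98908200 on the plus strand, and Dtl, the adaptor of the ligase that destroys Cdt1, at chr1:191575495-191575794 on the minus strand. Cdt1 is at chr8:122567765-122568064 on the plus strand, and Mcm6, a subunit of the helicase ring, at chr1:128359656-128359955 on the minus strand. Mcm10, a factor of helicase activation, is at chr2:5012742-5013041 on the minus strand, and Dbf4 at chr5:8422667-8422966 on the minus strand.
Cdc6: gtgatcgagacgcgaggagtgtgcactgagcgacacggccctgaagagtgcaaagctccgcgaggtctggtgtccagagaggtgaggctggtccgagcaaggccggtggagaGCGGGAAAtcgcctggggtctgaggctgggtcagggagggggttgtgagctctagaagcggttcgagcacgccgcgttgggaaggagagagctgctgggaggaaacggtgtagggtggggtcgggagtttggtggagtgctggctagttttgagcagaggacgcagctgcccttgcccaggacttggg
Dtl: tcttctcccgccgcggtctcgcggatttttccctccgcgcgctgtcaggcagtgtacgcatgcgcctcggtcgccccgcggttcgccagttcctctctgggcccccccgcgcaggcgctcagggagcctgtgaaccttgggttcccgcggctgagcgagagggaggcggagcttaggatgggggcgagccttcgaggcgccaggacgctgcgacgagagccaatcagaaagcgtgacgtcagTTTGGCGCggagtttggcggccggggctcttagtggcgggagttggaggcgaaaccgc
Cdt1: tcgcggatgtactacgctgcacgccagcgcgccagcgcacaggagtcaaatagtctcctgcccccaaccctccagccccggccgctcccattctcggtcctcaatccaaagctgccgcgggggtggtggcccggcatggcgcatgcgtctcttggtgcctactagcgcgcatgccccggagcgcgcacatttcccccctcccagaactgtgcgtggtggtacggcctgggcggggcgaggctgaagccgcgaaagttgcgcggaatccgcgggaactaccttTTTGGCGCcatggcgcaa
Mcm6: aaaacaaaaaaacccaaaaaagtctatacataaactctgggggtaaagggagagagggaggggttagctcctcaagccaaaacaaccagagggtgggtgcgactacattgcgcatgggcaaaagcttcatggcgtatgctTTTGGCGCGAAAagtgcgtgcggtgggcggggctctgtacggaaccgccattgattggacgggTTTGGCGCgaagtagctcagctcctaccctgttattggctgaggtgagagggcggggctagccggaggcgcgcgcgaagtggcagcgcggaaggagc
Mcm10: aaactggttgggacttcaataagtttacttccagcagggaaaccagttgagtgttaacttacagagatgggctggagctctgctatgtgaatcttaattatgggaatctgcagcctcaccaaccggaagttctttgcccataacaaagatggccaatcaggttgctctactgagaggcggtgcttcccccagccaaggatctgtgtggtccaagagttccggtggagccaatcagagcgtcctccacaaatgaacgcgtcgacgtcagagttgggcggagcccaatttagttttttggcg
Dbf4: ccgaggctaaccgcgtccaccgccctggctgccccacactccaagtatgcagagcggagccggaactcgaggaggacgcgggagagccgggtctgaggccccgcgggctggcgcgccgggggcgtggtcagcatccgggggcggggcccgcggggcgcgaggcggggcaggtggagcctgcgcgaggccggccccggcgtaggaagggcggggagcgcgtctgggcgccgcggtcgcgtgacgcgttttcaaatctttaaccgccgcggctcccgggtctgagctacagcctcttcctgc

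In Dtl the word ended 1 base before the start site, in Cdc6 it lay 131 to 138 bases before it, and in Cdt1 it began 32 bases after it. Mcm6 held 3 words, of which 2 overlap, since the stretch TTTGGCGCGAAA reads as TTTGGCGC forward and as TTTCGCGC on the other strand. Mcm10 and Dbf4 had no word in their windows. The window of Mcm10 ends in the letters tttggcg, the start of TTTGGCGC, and a word that crosses the edge would not be counted. The deposited counts carry no coordinates, and the submitters' processing notes name GRCm39, so these positions hold for GRCm38.p6 only.

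A window was found for 39 of the 47 genes, and 17 of them (43.6%) held an E2F word. Of all 27025 genes with a RefSeq window, 2.6% held one, and among the 10400 that were also tested here 4.7% did. By class, the word stood in 4 of 6 licensing genes, 6 of 11 helicase genes, 4 of 10 polymerase genes, 2 of 7 clamp genes and 1 of 5 fork and chromatin genes. The 23 words ran from 165 bases before the start site to 46 after it. The word CCAAT, searched on both strands, was in 24 of the 39 genes (61.5%), against 41.1% of all genes in the table and 42.7% of those tested. The word TTTGAA, known from genes of late cell cycle phases, was in 7 genes (17.9%), against 20.2% of all genes in the table and 14.6% of those tested. Mcm10 held CCAAT 3 times, and Dbf4 held TTTGAA once on the other strand. The median response to stimulation was 3.10 (log2) in CKO and 3.01 in WT for the 17 genes with an E2F word, and 1.97 in CKO and 2.04 in WT for the 22 without. The ranges overlapped almost wholly, from 0.34 to 5.90 with the word and from 0.013 to 6.95 without it in CKO. These shares and medians are descriptions of letters in a window, with no test.

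**Figure D1:**
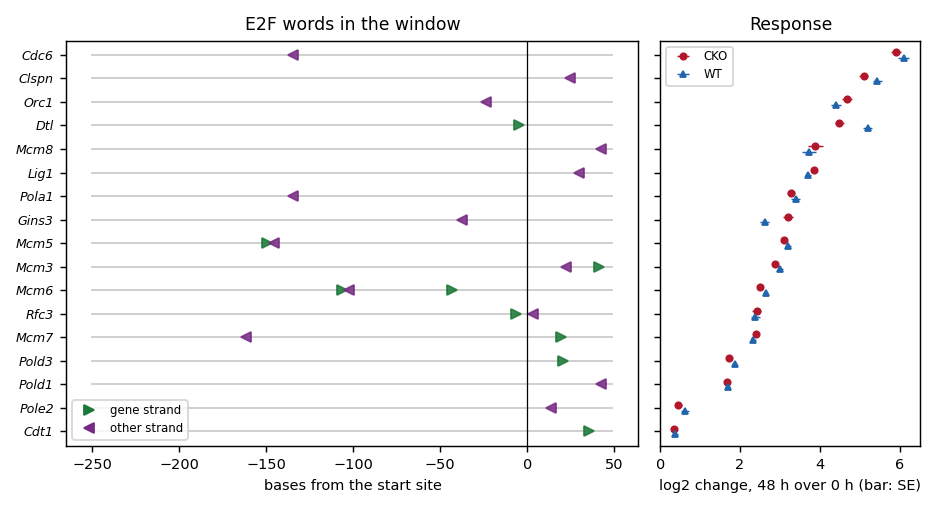
Left, position of each E2F word in the promoter windows of the 17 replication genes that hold one, in bases from the start site, with the arrow giving the strand. Right, log2 change from 48 h of stimulation over 0 h in CKO and WT cells with its SE (n = 3 libraries a group); genes are ordered by the CKO response, with Cdc6 at the top (5.90 in CKO) and Cdt1 at the bottom (0.34 in CKO).

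The first question was what 48 h of stimulation did to the replication genes in each genotype. Nearly the whole machinery rose in both. In CKO cells 46 of 47 genes were higher at 48 h than at 0 h and 0 were lower, and in WT cells 46 were higher and 1 was lower (edgeR, adjusted p under 0.05). The 47th gene was Dbf4. Among all genes tested 38.5% were higher and 39.2% lower in CKO, 77.7% in either direction, and 38.7% were higher and 39.1% lower in WT, 77.9% in either direction. The median log2 change over the 47 genes was 2.51 in CKO and 2.55 in WT, where all tested genes had medians of -0.043 and -0.033. DESeq2 gave the same counts, and in CKO 46 genes had an unadjusted p under 0.05. Summed over the 47 genes, CKO libraries held 7369 to 7494 CPM at 48 h and 1587 to 1682 CPM at 0 h. WT libraries held 7522 to 7862 CPM at 48 h and 1689 to 1702 CPM at 0 h. The genes thus took 0.733% to 0.742% of the counts in CKO and 0.732% to 0.773% in WT at 48 h, and at most 0.171% in either genotype at 0 h. Over the same hours markers of several other cell types fell, but not of all. Summed germinal-centre and plasma cell markers stood at 136.5 to 182.5 CPM in CKO at 48 h against 143.1 to 145.2 CPM at 0 h. In WT they stood at 161.0 to 226.6 CPM at 48 h against 165.5 to 228.2 CPM at 0 h. This list includes Prdm1, which rose in WT (log2 0.80, edgeR adjusted p = 0.0218, lost under 4 of 23 alternatives). In CKO Prdm1 was not called (log2 -0.48, edgeR adjusted p = 0.16). The sum cannot be read as a steady share of germinal-centre and plasma cells. Summed CD4 T-cell markers were lower at 48 h in CKO, but their libraries overlapped between the times in WT. The 7 B-cell markers all fell in both genotypes, with medians of -2.23 in CKO and -3.29 in WT, as did the 5 natural killer cell markers, with medians of -4.08 and -4.57. Of 7 myeloid markers 7 fell in CKO and 6 in WT. The CD8 T-cell markers also fell, 7 of 7 in CKO and 6 of 7 in WT, to a sum of 1560 to 1608 CPM in CKO at 48 h against 3474 to 3628 CPM in CKO at 0 h, and of 1889 to 1993 CPM in WT at 48 h against 3552 to 3756 CPM in WT at 0 h. Their part in the rise of the replication genes was not tested.

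**Figure D2:**
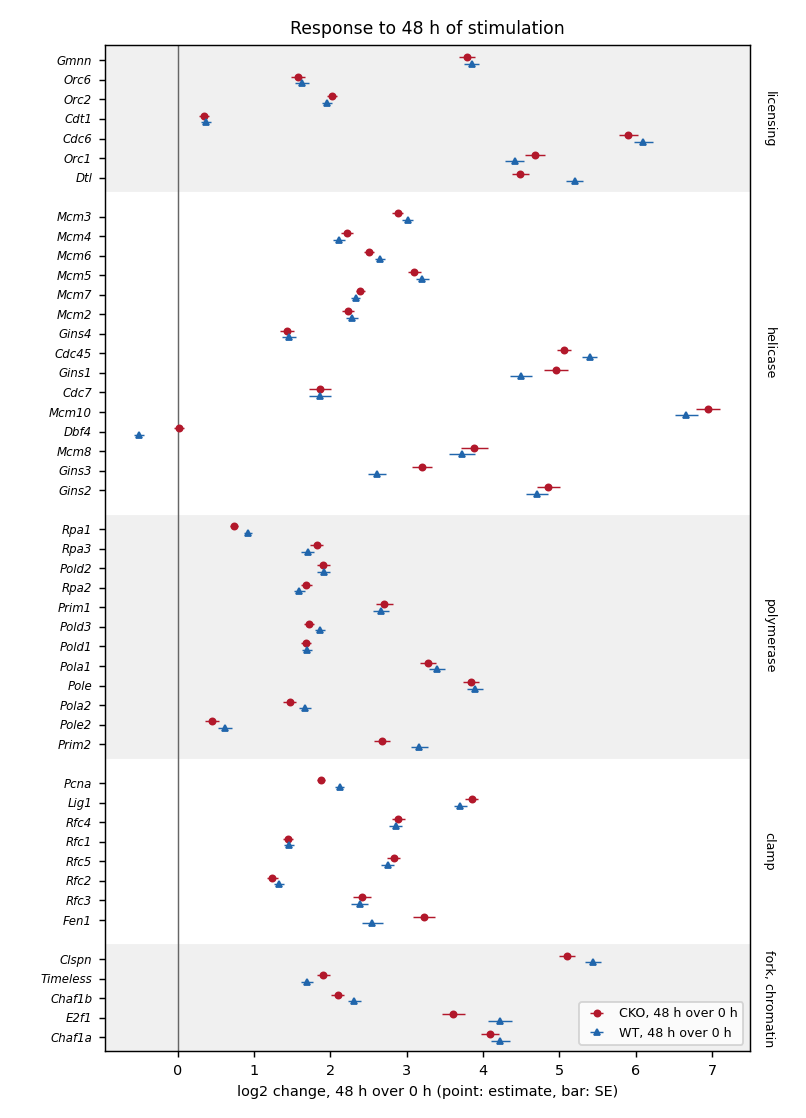
Log2 change, 48 h over 0 h, of each replication gene in CKO and WT cells (points: estimates, bars: SE, n = 3 libraries a group), by class. The points run from 0.013 (Dbf4) to 6.95 (Mcm10) in CKO and from -0.51 (Dbf4) to 6.66 (Mcm10) in WT, and all but those of Dbf4 lie to the right of 0.

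All 7 licensing genes passed upward in CKO and in WT, where their median changes were 3.79 and 3.85 (log2). Cdc6 had 126, 114 and 116 CPM in CKO at 48 h against 2.64, 1.27 and 2.01 CPM in CKO at 0 h. In WT Cdc6 had 128, 127 and 122 CPM at 48 h against 1.95, 1.87 and 1.67 CPM at 0 h. Its libraries at 48 h and 0 h lay far apart in both genotypes, and the change was 5.90 ± 0.13 (log2, SE) in CKO and 6.10 ± 0.13 in WT. Orc1, a subunit of the origin recognition complex, had 82.8, 78.3 and 81.2 CPM in CKO at 48 h against 3.2, 2.42 and 3.84 CPM in CKO at 0 h, and rose by 4.68 ± 0.13. In WT it rose by 4.41 ± 0.13. The other subunits measured rose less, Orc2 by 2.03 in CKO and 1.95 in WT and Orc6 by 1.57 and 1.63. Gmnn, which encodes geminin, had 74.0, 69.9 and 67.7 CPM in CKO at 48 h against 5.47, 4.97 and 4.81 CPM in CKO at 0 h. Its rise was 3.79 ± 0.10 in CKO and 3.85 ± 0.10 in WT.

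Cdt1 (ENSMUSG00000006585), the partner that geminin blocks, hardly moved beside it. It had 74.9, 70.9 and 72.8 CPM in CKO at 48 h against 56.5, 62.3 and 53.7 CPM in CKO at 0 h. WT libraries had 94.1, 92.3 and 91.7 CPM at 48 h against 70.4, 72.4 and 72.5 CPM at 0 h. The 48 h libraries lay above the 0 h libraries of their genotype without overlap, and the rise was 0.34 ± 0.065 in CKO (edgeR adjusted p = 9.52e-05) and 0.37 ± 0.064 in WT (edgeR adjusted p = 3.24e-05), the smallest of the 46. The ratio of Cdt1 to Gmnn, taken on CPM with no correction for length, so that only its change can be read, was 1.01, 1.01 and 1.07 in CKO at 48 h against 10.3, 12.5 and 11.2 in CKO at 0 h. In WT it was 1.18, 1.3 and 1.19 at 48 h against 15.2, 11.8 and 14.7 at 0 h. The balance of the loader's mRNA to that of its inhibitor was thus lower in every 48 h library than in every 0 h library of both genotypes.

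The helicase genes had medians of 2.88 in CKO and 2.65 in WT, and their parts differed widely. The 6 subunits of the ring, Mcm2 to Mcm7, rose by similar amounts, 2.22 (Mcm4) to 3.10 (Mcm5) in CKO and 2.11 (Mcm4) to 3.21 (Mcm5) in WT. Mcm6 may stand for them, with 572, 587 and 586 CPM in CKO at 48 h against 97.4, 98.4 and 111 CPM in CKO at 0 h. WT libraries had 596, 602 and 625 CPM at 48 h against 102, 94.3 and 94.8 CPM at 0 h. Per kilobase of exon, the highest ring subunit stood 3.58 times over the lowest in CKO at 48 h, 3.4 times in CKO at 0 h, 3.46 times in WT at 48 h and 3.67 times in WT at 0 h, so the subunits kept much the same spread as they rose. Among the factors that turn the ring into a moving helicase, Mcm10 and Cdc45 rose more than any ring subunit. Mcm10 had 123, 116 and 126 CPM in CKO at 48 h against 0.922, 0.727 and 1.28 CPM in CKO at 0 h. In WT it had 114, 122 and 126 CPM at 48 h against 1.83, 0.810 and 0.951 CPM at 0 h. No other gene of the 47 changed as much, with 6.95 ± 0.16 in CKO and 6.66 ± 0.15 in WT. Cdc45 rose by 5.06 ± 0.094 in CKO and 5.40 ± 0.095 in WT, and Mcm8, a relative of the ring subunits with a role in repair, by 3.89 and 3.72.

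The GINS complex contains 1 copy each of 4 subunits, whose mRNAs did not move together. Gins1 rose by 4.95 in CKO and 4.49 in WT, Gins2 by 4.86 and 4.70, and Gins3 by 3.2 and 2.61. Gins4, already at 20.5, 18.9 and 21.7 CPM in CKO at 0 h, reached 53.1, 57.2 and 54.4 CPM in CKO at 48 h, a rise of 1.43 ± 0.092. In WT Gins4 rose by 1.46 ± 0.091. Per kilobase, the highest GINS subunit stood 4.03 times over the lowest in CKO at 48 h and 43.4 times in CKO at 0 h, and 3.96 times in WT at 48 h and 37.5 times in WT at 0 h. A wide imbalance among their mRNAs in resting cells was thus much smaller after stimulation. The ratios at 0 h rest on low counts of the lowest subunit, Gins2. Over 3 libraries it had 70 counts in CKO at 0 h (mean 1.425 CPM) and 85 in WT at 0 h (mean 1.586 CPM).

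Among the polymerase genes the median rise was 1.77 in CKO and 1.78 in WT, the lowest of the 5 classes. The catalytic subunits of polymerases alpha and epsilon rose most, Pola1 by 3.27 in CKO and 3.39 in WT and Pole by 3.84 and 3.9. Their accessory subunits Pola2 (1.47 and 1.67) and Pole2 (0.45 and 0.62) rose less. Pole2 had 41.3, 42.5 and 38.4 CPM in CKO at 48 h against 29.0, 29.6 and 30.9 CPM in CKO at 0 h, while Pole had 192, 198 and 205 CPM in CKO at 48 h against 12.4, 12.8 and 16.3 CPM in CKO at 0 h. Pole2 overlaps a protein-coding gene on its own strand and an antisense gene in the annotation, and no source says how reads in such overlaps were counted. The delta subunits Pold1 (1.68 and 1.69), Pold2 (1.91 in both genotypes) and Pold3 (1.72 and 1.87) rose by similar amounts. A further delta subunit, Pold4, which is not among the members, fell in both genotypes, as given below. The primase subunits Prim1 (2.71 and 2.67) and Prim2 (2.68 and 3.16) rose more than the single-strand binding proteins Rpa1 (0.74 and 0.92), Rpa2 (1.68 and 1.59) and Rpa3 (1.82 and 1.70). In each of these pairs CKO stands before WT.

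The clamp genes had medians of 2.62 in CKO and 2.46 in WT. Pcna had 606, 618 and 600.3 CPM in CKO at 48 h against 159, 168 and 169.5 CPM in CKO at 0 h. In WT it had 706, 672 and 676 CPM at 48 h against 167, 153 and 152 CPM at 0 h. It was the most abundant of the 47 mRNAs per kilobase of exon in all 4 groups, and its pseudogene Pcna-ps2 never passed 2.79 CPM. The joining enzymes of the lagging strand rose more than the clamp, Lig1 by 3.85 in CKO and 3.70 in WT and the flap endonuclease Fen1 by 3.23 and 2.55. The loader subunits ranged from Rfc2 (1.24 in CKO, 1.32 in WT) and Rfc1 (1.44, 1.46) through Rfc3 (2.42, 2.38) to Rfc5 (2.83, 2.75) and Rfc4 (2.89, 2.85).

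Of the fork and chromatin genes, with medians of 3.61 in CKO and 4.22 in WT, Clspn, the adaptor of the replication checkpoint, rose by 5.10 in CKO and 5.44 in WT. Its fork partner Timeless rose by 1.91 and 1.70. The subunits of the histone chaperone CAF-1 rose by 4.09 and 4.23 (Chaf1a) and by 2.09 and 2.31 (Chaf1b). E2f1, itself a transcription factor of these genes, had 38.4, 33.8 and 36.0 CPM in CKO at 48 h against 3.07, 2.48 and 3.29 CPM in CKO at 0 h, and rose by 3.61 in CKO and 4.22 in WT.

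Stimulation brought the levels of the machinery closer together. The SD of log2 CPM per kilobase over the 47 genes was 1.14 in CKO at 48 h and 2.07 in CKO at 0 h, and 1.15 in WT at 48 h and 2.09 in WT at 0 h. At 48 h none of the 47 genes averaged under 5 CPM, whereas at 0 h 11 did so in CKO and 12 in WT. The levels per kilobase ran from 8.82 (Fen1) to 253 (Pcna) in CKO at 48 h and from 0.127 (Mcm10) to 69.0 (Pcna) in CKO at 0 h. In WT they ran from 9.43 (Fen1) to 285 (Pcna) at 48 h and from 0.156 (Mcm10) to 65.6 (Pcna) at 0 h. Lengths are those of all annotated exons of a gene joined, so a gene with long exons that are seldom used appears lower by this measure.

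**Figure D3:**
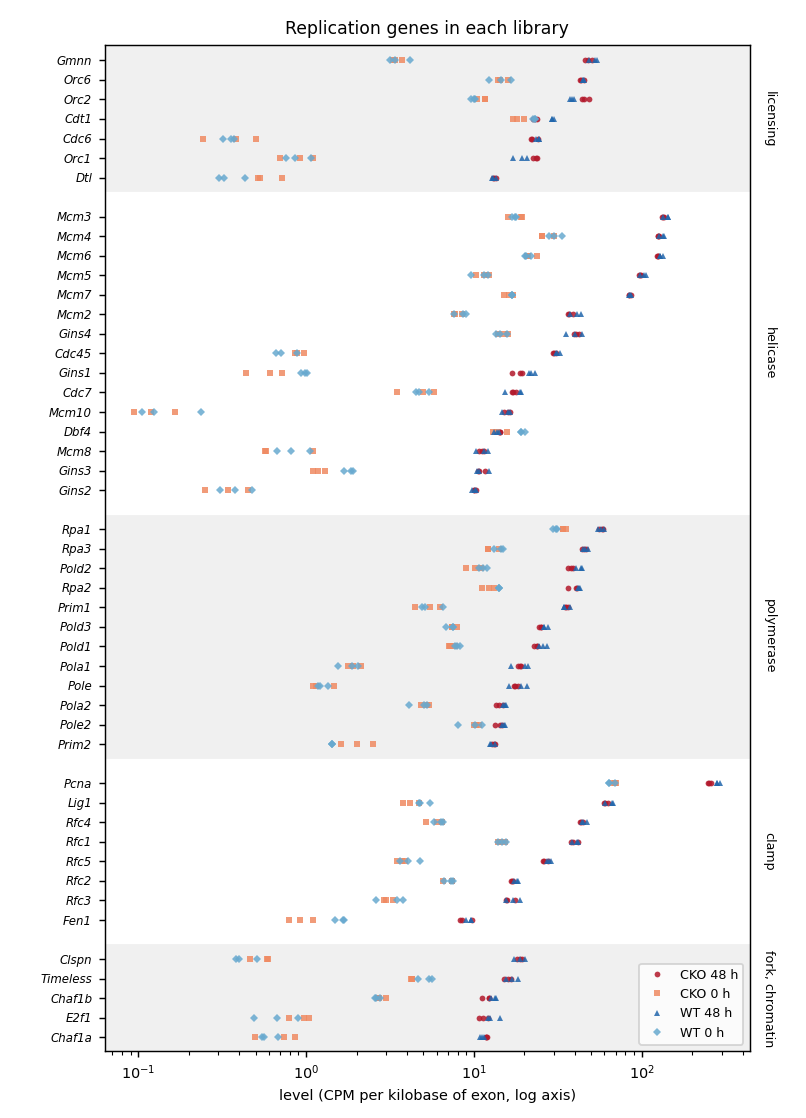
Level of each replication gene in each of the 12 libraries (CPM per kilobase of exon, log axis), by class and, within a class, by level in WT cells at 48 h. The 48 h libraries lie to the right of the 0 h libraries of their own genotype and within a narrower range, from 8.82 to 253 on average in CKO, except for Dbf4, where WT cells at 0 h lie to the right and the CKO libraries of both times overlap.

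Dbf4 (ENSMUSG00000002297), the subunit that switches on Cdc7, was the exception to the common rise. It had 124, 125 and 125 CPM in CKO at 48 h against 113, 137 and 120.2 CPM in CKO at 0 h. In WT it had 115, 123 and 119.6 CPM at 48 h against 167, 166 and 175 CPM at 0 h. The CKO libraries overlapped between the times and their difference was 0.013 ± 0.067 (95% interval -0.13 to 0.15, edgeR adjusted p = 0.86). In WT every 48 h library lay under every 0 h library and Dbf4 fell by 0.51 ± 0.066 on the log2 scale (edgeR adjusted p = 9.32e-07). Cdc7, its kinase, rose alike in both genotypes, by 1.87 ± 0.14 in each. The ratio of Dbf4 to Cdc7, on CPM as above, was 1.75, 1.74 and 1.67 in CKO at 48 h against 5.46, 9.37 and 4.94 in CKO at 0 h, and 1.78, 1.54 and 1.52 in WT at 48 h against 8.46, 7.32 and 9.32 in WT at 0 h.

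The next question was whether resting CKO cells differed from resting WT cells. At 0 h 2 of the 47 genes were higher in CKO and 5 were lower, 14.9% in all, where 7.48% of all tested genes were called, 4.1% higher and 3.38% lower (edgeR, adjusted p under 0.05). The median difference was -0.016 (log2), close to the median of all tested genes (-0.0053). A further 8 genes had an unadjusted p under 0.05 without passing, so that 15 did in all. The 7 called genes came from all 5 classes.

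Dbf4 was 0.46 ± 0.067 lower in resting CKO cells (log2, edgeR adjusted p = 1.85e-04), with the libraries given above: the highest CKO library at 0 h, 137 CPM, lay under the lowest WT library, 166 CPM. Dtl (ENSMUSG00000037474) was higher, with 7.07, 7.33 and 9.81 CPM in CKO against 4.18, 5.92 and 4.46 CPM in WT at 0 h. The groups did not overlap, and the difference was 0.72 ± 0.13 (edgeR adjusted p = 0.00191). Cdt1, whose protein the Dtl ligase destroys, was lower by 0.32 ± 0.065 (edgeR adjusted p = 0.00432), and its highest CKO library at 0 h, 62.3 CPM, lay under the lowest WT library, 70.4 CPM. Prim2, the large primase subunit, had 9.59, 15.0 and 11.9 CPM in CKO against 8.47, 8.51 and 8.44 CPM in WT at 0 h. Its difference was 0.52 ± 0.12 (edgeR adjusted p = 0.0114). This difference rested in part on CKO replicate 2, without which it was 0.34 (adjusted p = 0.062). In the annotation Prim2 overlaps Gm37618 on its own strand and processed pseudogenes on the opposite strand.

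Fen1 had 1.91, 2.24 and 2.68 CPM in CKO against 4.07, 4.0 and 3.63 CPM in WT at 0 h, a difference of -0.78 ± 0.17 (edgeR adjusted p = 0.00643). These are low levels, and Fen1 overlaps the protein-coding gene Tmem258 and an antisense gene on the opposite strand. Gins3 had 3.2, 3.51 and 2.99 CPM in CKO against 4.58, 5.01 and 5.17 CPM in WT at 0 h, a difference of -0.61 ± 0.14 (edgeR adjusted p = 0.0118), which lost its call without CKO replicate 3 (adjusted p = 0.0571). Timeless had 26.3, 26.1 and 25.8 CPM in CKO against 28.4, 32.9 and 34.4 CPM in WT at 0 h. Its difference of -0.29 ± 0.085 passed narrowly (edgeR adjusted p = 0.0411) and lost its call under 13 of 22 alternatives. None of the 7 pairs of groups overlapped. The 7 genes were picked by the test on these same libraries, so the lack of overlap adds no support to their calls.

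Gins1 showed the next largest difference without passing, 0.922, 0.666 and 1.10 CPM in CKO against 1.49, 1.42 and 1.55 CPM in WT at 0 h (-0.72 ± 0.22, edgeR adjusted p = 0.0696). E2f1 stood at 3.07, 2.48 and 3.29 CPM in CKO against 2.12, 2.84 and 1.55 CPM in WT, with overlap (0.43 ± 0.20, edgeR adjusted p = 0.221). Rpa1 was at 0.17 ± 0.055 (edgeR adjusted p = 0.0616) with libraries that did not overlap, and was called with DESeq2 and under 4 other alternatives. Of the 6 ring subunits, 0 were called at 0 h by edgeR or DESeq2, and 1, Mcm4, had an unadjusted p under 0.05 (-0.18 ± 0.075, edgeR adjusted p = 0.159).

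When only the 0 h libraries entered the fit, 1 gene was higher (Dtl) and 2 were lower (Dbf4 and Cdt1). Without replicate 1 of WT at both times, which at 0 h was the library highest in B-cell markers, all 7 calls held and Rpa1 was added. The 7 B-cell markers summed lower in CKO at 0 h, as given above. By edgeR 0 of them was called, beside 7.48% of all tested genes, while 3 had an unadjusted p under 0.05 and DESeq2 called 0. The 5 natural killer cell markers summed to 134, 78.7 and 150.2 CPM in CKO against 99.4, 77.1 and 93.8 CPM in WT at 0 h. Of these 5, 1 (Klre1) was called higher, beside 4.1% of all tested genes. The call was lost under 6 of 22 alternatives, among them leaving out WT replicate 2 or 3 or CKO replicate 1 or 3 of 0 h (adjusted p up to 0.13). The part of these markers in the differences at 0 h was not tested.

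**Figure D4:**
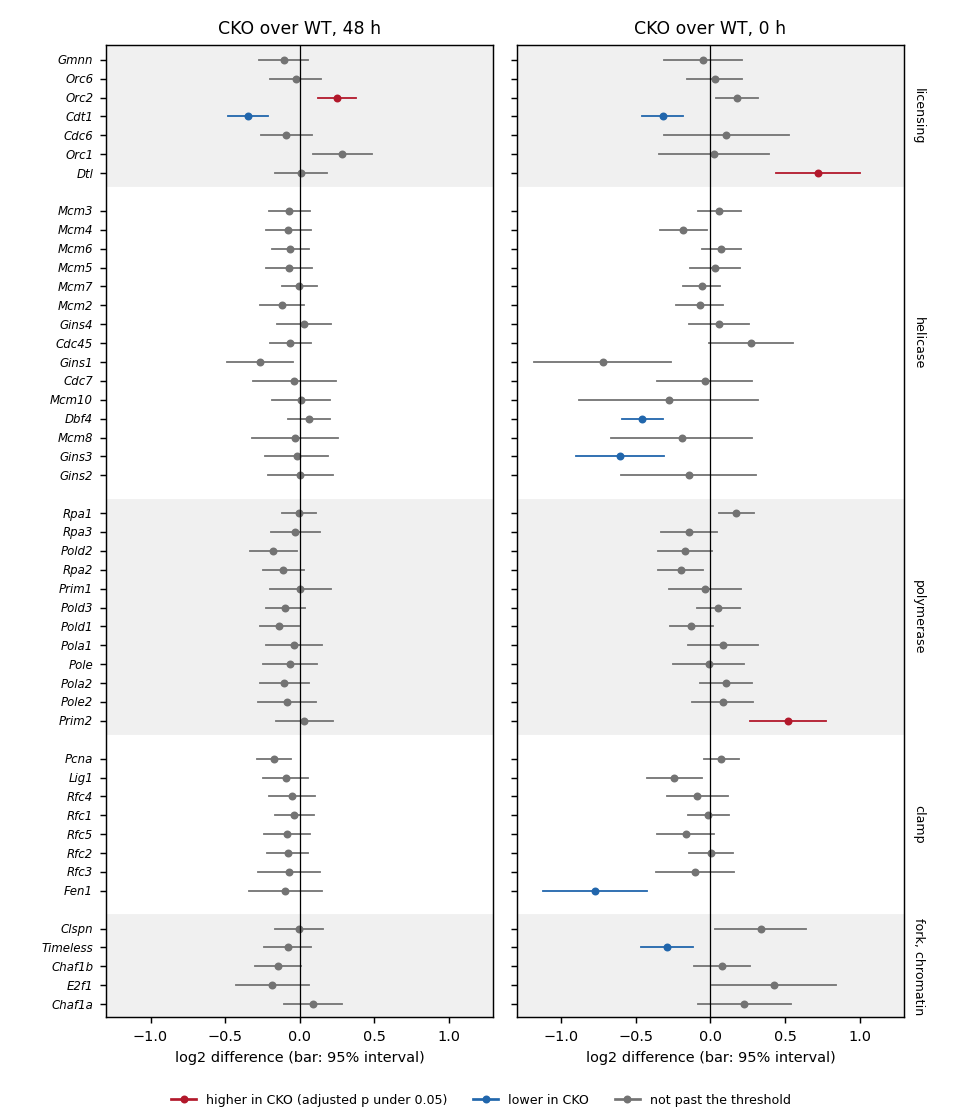
Log2 difference, CKO over WT, of each replication gene at 48 h and at 0 h with its 95% interval (n = 3 libraries a group), coloured by the edgeR call. At 48 h 2 genes pass (Orc2 higher, Cdt1 lower) and every interval lies within 0.5 of 0, and at 0 h 7 pass, with estimates from -0.78 (Fen1) to 0.72 (Dtl).

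After 48 h of stimulation the machinery was at similar levels in both genotypes. In CKO 1 gene was higher and 1 was lower than in WT, 4.26% of the 47, where 4.54% of all tested genes were called, 2.35% higher and 2.19% lower (edgeR, adjusted p under 0.05). The 95% intervals of all 47 differences lay within 0.5 on the log2 scale, and the bound farthest from 0 was 0.485. A difference under that size was left unresolved for many genes. The estimates leaned to the lower side: 37 of the 47 were under 0, with a median of -0.066, where all tested genes had a median of -0.0073, and 7 had an unadjusted p under 0.05.

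Cdt1 was the gene called lower, by 0.35 ± 0.064 (log2, edgeR adjusted p = 0.00244). All 3 CKO libraries at 48 h, 70.9 to 74.9 CPM, lay under all 3 WT libraries, 91.7 to 94.1 CPM. Its deficit thus had nearly the same size at 48 h and at 0 h. Orc2 was the gene called higher, with 175, 169.5 and 186 CPM in CKO against 145, 148 and 153 CPM in WT at 48 h. The groups did not overlap and the difference was 0.25 ± 0.061 (edgeR adjusted p = 0.0203), and lost its call when WT replicate 1 or 2 or CKO replicate 1 or 3 of 48 h was left out (highest adjusted p = 0.167). Orc2 stood 0.18 ± 0.067 higher in CKO at 0 h, which did not pass (edgeR adjusted p = 0.12). In the annotation Orc2 overlaps the protein-coding gene Nif3l1 on the opposite strand.

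Other genes came close. Orc1 had 82.8, 78.3 and 81.2 CPM in CKO against 59.6, 67.1 and 71.7 CPM in WT at 48 h, without overlap (0.29 ± 0.094, edgeR adjusted p = 0.0973). Pcna stood lower in all 3 CKO libraries than in all 3 WT libraries at 48 h, by 0.17 ± 0.055 (edgeR adjusted p = 0.091), and was called with DESeq2 (adjusted p = 0.0236). All 8 clamp genes had estimates under 0, from -0.17 (Pcna) to -0.035 (Rfc1), with 0 called by edgeR, 1 at an unadjusted p under 0.05 and 1 by DESeq2. All 6 ring subunits also did, from -0.12 (Mcm2) to -0.002 (Mcm7), with 0 called by edgeR or DESeq2 and 0 at an unadjusted p under 0.05. Of the 12 polymerase genes 10 had estimates under 0, among them Pold2 (-0.18 ± 0.075) and Pold1 (-0.14 ± 0.062), the 2 of this class at an unadjusted p under 0.05. By edgeR and DESeq2 0 of the 12 were called. In the same libraries the 7 CD8 T-cell markers summed to 1560 to 1608 CPM in CKO and 1889 to 1993 CPM in WT. All 7 had estimates under 0 and 3 were called lower, beside 2.19% of all tested genes. The call of Cd8a (log2 -0.36, edgeR adjusted p = 4.80e-04) was lost only with a required log2 change of at least 1. That of Cd8b1 was lost under 10 of 22 alternatives and that of Cd2 under 4 of 22. The part of these markers in the estimates of the replication genes was not tested.

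**Figure D5:**
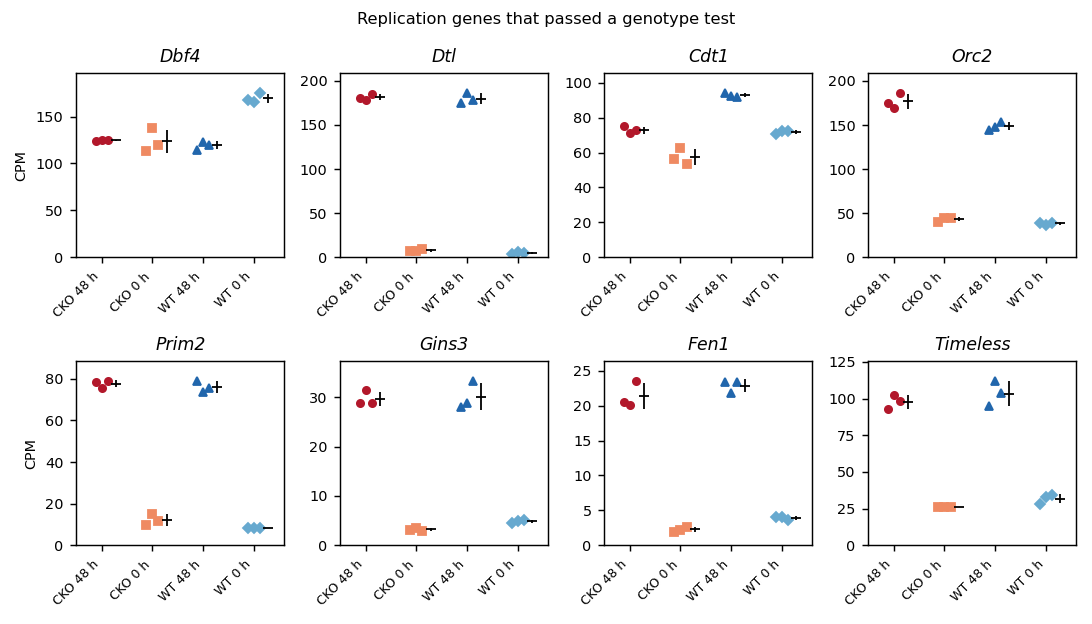
CPM in each library of the 8 replication genes that passed a test between genotypes, with the mean and SD of each group beside its 3 libraries. Dbf4 lies highest in WT at 0 h (166 to 175 CPM), Cdt1 lies lower in CKO than in WT at both times, and each of the other 6 passed at 1 time only.

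The last comparison asked whether the genotypes responded differently to stimulation. The response differed for 2 of the 47 genes (4.26%), where 1.38% of all tested genes were called, 0.609% higher and 0.772% lower in CKO (edgeR interaction term, adjusted p under 0.05). The response of Dbf4 was higher in CKO by 0.52 ± 0.094 (edgeR adjusted p = 0.00609), being 0.013 in CKO against -0.51 in WT. The response of Dtl was lower in CKO by 0.71 ± 0.16 (edgeR adjusted p = 0.0268), being 4.49 in CKO against 5.20 in WT. At 48 h both genes stood close together in the genotypes, Dtl at 181, 178 and 185 CPM in CKO against 175, 186 and 179 CPM in WT (0.011 ± 0.083), and Dbf4 at a difference of 0.064 ± 0.067, with its 3 CKO libraries just above its 3 WT libraries. The call of Dbf4 held under all alternatives except a required log2 change of at least 1, and the call of Dtl was lost under 8 of 22, with adjusted p up to 0.0992 when CKO replicate 3 of 0 h was left out. E2f1 (-0.61 ± 0.23), Fen1 (0.68 ± 0.20), Gins3 (0.59 ± 0.17) and Prim2 (-0.49 ± 0.15) had interaction terms of like size that did not pass (edgeR adjusted p = 0.241, 0.121, 0.118 and 0.136). For Cdt1 the term was -0.027 ± 0.091 (edgeR adjusted p = 0.949). These terms share their 0 h libraries with the differences at 0 h and are no separate evidence of them.

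Genes that work beside the machinery moved with it. Of 32 other replication genes, 28 rose and 2 fell in each genotype, with medians of 1.5 in CKO and 1.55 in WT. That is 87.5% higher and 6.25% lower in each genotype, beside the 38.5% higher and 39.2% lower of all tested genes in CKO and the 38.7% and 39.1% in WT. Uhrf1, which keeps DNA methylation through replication, rose by 5.30 in CKO and 5.50 in WT, Ticrr, which helps to load Cdc45, by 4.96 and 5.63, and Tipin, the partner of Timeless, by 3.18 and 3.16, while Mcm9 (-0.41 and -0.47) and Pold4 (-0.31 and -0.51) fell. Within the origin recognition complex, Orc3 (0.23 and 0.16) and Orc4 (0.35 and 0.29) rose little and Orc5 by 1.22 and 1.20, so that Orc1 rose most of the 6 subunits measured. At 0 h 2 of the 32 were called (6.25%, beside 7.48% of all tested genes). Ticrr was higher in CKO, with 2.71, 3.09 and 3.17 CPM against 2.12, 1.47 and 1.67 CPM in WT (0.78 ± 0.17, edgeR adjusted p = 0.00629, and 0.118 when only the 0 h libraries were fitted). Donson, a factor of helicase assembly, was lower, with 48.4, 48.6 and 43.5 CPM in CKO against 57.3, 64.7 and 58.4 CPM in WT (-0.36 ± 0.073, edgeR adjusted p = 0.00394). At 48 h 0 of the 32 were called by edgeR or DESeq2, beside 4.54% of all tested genes by edgeR, and 6 had an unadjusted p under 0.05.

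In CKO 12 of 15 tested genes of E2F and pocket proteins rose and 1 fell, and in WT 11 rose and 2 fell, 80.0% and 73.3% higher beside 38.5% and 38.7% of all tested genes. At 0 h 2 of the 15 were called (13.3%, beside 7.48%). E2f8, a repressive E2F, rose by 5.39 in CKO and 5.97 in WT, and the dimer partner Tfdp1 by 3.16 and 3.49. Tfdp1 had 49.4, 50.6 and 56.0 CPM in CKO against 45.9, 40.5 and 37.7 CPM in WT at 0 h (0.33 ± 0.071, edgeR adjusted p = 0.00674, and 0.0532 without CKO replicate 3 of 0 h). E2f2 had 13.7, 17.5 and 19.0 CPM in CKO against 12.7, 9.82 and 7.85 CPM in WT at 0 h (0.72 ± 0.14, edgeR adjusted p = 0.00554). The libraries of the genotypes did not overlap for either gene. At 48 h E2f2 had 75.6, 67.5 and 70.5 CPM in CKO against 81.2, 75.3 and 78.8 CPM in WT, and its response was lower in CKO by 0.86 ± 0.19 (edgeR adjusted p = 0.0285, lost under 7 of 22 alternatives).

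Of 18 S-phase kinase and ligase genes 16 rose in each genotype, 2 fell in CKO and 1 fell in WT (88.9% higher in each, beside 38.5% and 38.7% of all tested genes), with Cdc25a, the phosphatase that activates Cdk2, at 3.23 in CKO and 3.22 in WT and Fbxo5, an inhibitor of the anaphase-promoting complex, at 3.10 and 3.04. The Cdk inhibitor gene Cdkn1b fell by 2.76 in CKO and 2.86 in WT on the log2 scale. At 0 h 3 of the 18 were called (16.7%, beside 7.48% of all tested genes). Cdk2 was higher in CKO by 0.42 ± 0.084 (edgeR adjusted p = 0.00353), the checkpoint kinase Atr by 0.25 ± 0.072 (edgeR adjusted p = 0.0427), and its partner Atrip was lower by 0.35 ± 0.10 (edgeR adjusted p = 0.0414). The call of Atr was lost under 8 of 22 alternatives, each but 1 the loss of a single library (adjusted p up to 0.222), and that of Atrip under 13 of 22 (adjusted p up to 0.198, and 0.0513 with the replicate number as a block). At 48 h 1 of the 18 was called (5.56%, beside 4.54%). Ccne2, a cyclin of S-phase entry, had 119.6, 108 and 110.1 CPM in CKO against 97.4, 83.1 and 84.1 CPM in WT (0.35 ± 0.090, edgeR adjusted p = 0.028). The call was lost without WT replicate 2 or 3 or CKO replicate 1 or 3 of 48 h (adjusted p up to 0.151). Among 9 genes of nucleotide supply 7 rose in CKO (77.8%) and 8 in WT (88.9%), beside 38.5% and 38.7% of all tested genes. In each genotype 1 fell, beside 39.2% of all tested genes in CKO and 39.1% in WT. Rrm1, the large subunit of ribonucleotide reductase, rose by 4.04 in CKO and 3.94 in WT, and the dUTPase gene Dut by 3.38 and 3.55. Samhd1, which breaks nucleotides down, had 673, 789 and 642 CPM in CKO at 48 h against 647, 697 and 692 CPM in CKO at 0 h. In WT it had 869, 779 and 776 CPM at 48 h against 590.4, 549 and 505 CPM at 0 h. It rose in WT (0.56 ± 0.077, edgeR adjusted p = 1.76e-06), while its change in CKO was 0.048 ± 0.076, a difference between the responses of -0.51 ± 0.11 (edgeR adjusted p = 0.0187, lost under 4 of 22 alternatives). At 0 h Samhd1 was the 1 of the 9 called, where 7.48% of all tested genes were called. It stood higher in CKO by 0.31 ± 0.077 (edgeR adjusted p = 0.0169, lost without replicate 2 or 3 of either genotype at 0 h, up to 0.0958). All 9 supply genes had estimates under 0 between the genotypes at 48 h, with a median of -0.15 (log2). By edgeR 0 of them were called, beside 4.54% of all tested genes, while 4 had an unadjusted p under 0.05 and DESeq2 called 1.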

How the data were processed

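The authors deposited whole-number counts for each Ensembl gene ID in 12 libraries, 3 for each of 4 groups, with no scaling. Per the labels' protocols, a stranded mRNA kit was used. The submitters' processing notes list HISAT2 2.2.1, cutadapt, GRCm39 and DESeq2 without saying what each did. The counter, its annotation and its strand setting are not stated, so how reads of overlapping genes were assigned is not known.

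Symbols were matched by ID for 52073 of 56691 IDs, and the others held 0.249% of counts. Exon lengths came from GENCODE M21 (GRCm38). TMM factors scaled the counts, and a robust quasi-likelihood fit with 1 mean per group was made in edgeR 4.0.16 (R 4.3.3), with 8 residual degrees of freedom and a common biological coefficient of variation of 0.0999. Genes kept by filterByExpr, 15935 in all, were tested two-sided with Benjamini-Hochberg adjustment over all of them, and a call means an adjusted p under 0.05. Tests compared 48 h with 0 h in each genotype, CKO with WT at each time, and the 2 responses with each other. The fit was tested on simulated data. The 47 genes, the other gene lists and the alternatives were chosen with earlier results of these data known. All 47 genes could be named; from each other list, genes called between the genotypes or in the interaction, and the 3 with the smallest adjusted p in each response, of which 1 is not reported here. Orc3, Orc4, Orc5, Pold4, Mcm9 and the markers were named after their values were seen. Alternatives used DESeq2 1.42.0, other scaling, filters and fits, a replicate block, thinning, and left-out libraries. The replicate numbers were checked for pairing. Python 3.11.15 with pandas 2.3.3, NumPy 2.4.6 and matplotlib 3.10.9 made the rest.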

Additional observations from a re-analysis of the deposited data

Results flagged for a closer look

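The responses of 4 genes to stimulation differed between CKO and WT by the interaction term (edgeR, adjusted p under 0.05). Dbf4 responded by 0.013 in CKO and by -0.51 in WT (log2), a difference of 0.52. Dtl responded by 4.49 in CKO and by 5.20 in WT, a difference of -0.711. E2f2 responded by 2.09 in CKO and by 2.95 in WT, a difference of -0.863. Samhd1 responded by 0.048 in CKO and by 0.56 in WT, a difference of -0.512. All 4 genes differed between the genotypes at 0 h, and 0 of them passed at 48 h by edgeR or DESeq2, where their differences were 0.064, 0.011, -0.14 and -0.20. Samhd1 had an unadjusted p under 0.05 at 48 h. The interaction call was lost under 1 of 22 alternatives for Dbf4, 8 for Dtl, 7 for E2f2 and 4 for Samhd1, in each gene with a required log2 change of at least 1 and otherwise when single libraries were left out. Groups of 3 are too small for the test of a single far value within a group, which was not run.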

How the results depend on the processing

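The counts of replication genes that rose or fell with stimulation were the same under every alternative run, except that requiring a log2 change of at least 1 left 43 rises in each genotype and 0 falls in WT. No called result changed sign. Between the genotypes that requirement left 0 genes at 0 h, at 48 h and in the interaction. Fits of only the groups compared gave 1 higher and 2 lower at 0 h, and 2 higher at 48 h. DESeq2 gave 2 lower at 48 h and 2 lower in the interaction, as did the interaction with no filter on low counts and without replicate 1 of WT at both times. With each library left out in turn, 2 to 3 genes were higher and 3 to 5 lower at 0 h (3 without CKO replicate 3 of 0 h), 0 to 1 were higher and 1 lower at 48 h, and 1 was higher and 0 to 2 lower in the interaction. The call lost at 48 h was that of Orc2, without WT replicate 1 or 2 or CKO replicate 1 or 3 of 48 h. The call lost in the interaction was that of Dtl, without WT replicate 1 or 3 or CKO replicate 3 of 0 h, or WT replicate 2 or 3 or CKO replicate 1 or 3 of 48 h, and Prim2 was added without CKO replicate 1 of 0 h. Beyond the smaller samples and the stricter limit themselves, the cause was not tested. The replicate numbers were not taken as pairs, since the labels do not say that they are and of 18 same-numbered pairs, with correlations of -0.013 to 0.15, only 2 were over 0.1. Each of the 12 libraries nevertheless had its highest correlation with a library of its own number, and 2 did so against every other group, a hint from the data and not from the design. With the replicate number as a block the counts were 46 higher and 0 lower in CKO, 46 and 1 in WT, 2 and 5 at 0 h, 1 and 1 at 48 h, and 1 and 1 in the interaction, and Atrip lost its call at 0 h (adjusted p = 0.0513). Depth limits the genes under 5 CPM at 0 h.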
